A study of Drosophila melanogaster with 2 samples.

Results

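Division-rich nuclei are nuclei of Drosophila melanogaster embryos in which transcripts of the cell division machinery took a larger share of the RNA than in the rest. They were chosen by measured values: among nuclei with at least 2000 UMIs (unique molecular identifiers, each standing for 1 captured transcript), those in which the summed UMIs of 23 division genes made up at least 0.2% of the UMIs of the nucleus. The rule took 89 nuclei of the 318 in the library. The other 119 nuclei of at least 2000 UMIs served as the comparison, and the 110 nuclei under 2000 UMIs entered no comparison. The study paired RNA with accessible chromatin and chromatin contacts in single nuclei, in an assay its authors call scAIR. Both groups came from the same library, made from nuclei of embryos collected over 0-24h, which were released by lysis and squashing and fixed with a crosslinker. Their DNA was digested by restriction enzymes and joined by proximity ligation before the nuclei were run on a 10x Genomics instrument. The labels give no strain, genotype, sex or treatment, and name no single embryos, so every nucleus of the window is pooled from an unstated number of animals. Accessibility and contacts were not analysed here.

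In a dividing cell, the origin recognition complex and the MCM helicase prepare DNA for copying, the sliding clamp PCNA holds the polymerases at the fork, and ribonucleotide reductase supplies the building blocks. Mitotic cyclins bound to Cdk1, with the Polo and Aurora kinases, then drive chromosome condensation, spindle assembly and, with the kinesin Pavarotti, cleavage. The early fly embryo divides on transcripts that the mother stored in the egg. Later divisions rest on the embryo's own transcription, neuroblasts go on dividing after most epidermal cells have stopped, and muscle fibres and neurons no longer divide.

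The library had 2233526 UMIs, of which the division-rich nuclei held 1088184 and the other nuclei 1026712. Division-rich nuclei had a median of 7064 UMIs (range 2129 to 76485), against a median of 4596 (range 2062 to 123309) in the other nuclei. Each nucleus carried a distinct name. Depth was uneven, since the 9 deepest division-rich nuclei held 37.2% of the UMIs of their group and the 12 deepest of the other nuclei 43.1%. When every nucleus was thinned to 2000 UMIs, a median of 1112 genes was found in division-rich nuclei and 1028 genes in the other nuclei. With 1 library there are no replicates and no test. Intervals are at 95%, cover counting error only, and say nothing of how nuclei or embryos vary.

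The values that chose the nuclei are given as a description. The 23 genes took a median of 0.270% of UMIs in division-rich nuclei, with a highest value of 0.725%, against a median of 0.111% and a range of 0% to just under 0.2% in the other nuclei. That share rested on a median of 22 UMIs in a division-rich nucleus (range 5 to 402) and of 5 UMIs in another nucleus. The nucleus nearest to the threshold on the inside stood at 0.2004% with 42 of 20960 UMIs, and the nearest on the outside at 0.1999% with 12 of 6002 UMIs. Exact binomial intervals lay wholly above the threshold in 31 of the 89 division-rich nuclei, and lay wholly below it in 37 of the 119 other nuclei. The division-rich group is a range at the upper end of a continuous distribution: 68 nuclei lay between 0.15% and 0.25%, of which 37 were division-rich.

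**Figure D1:**
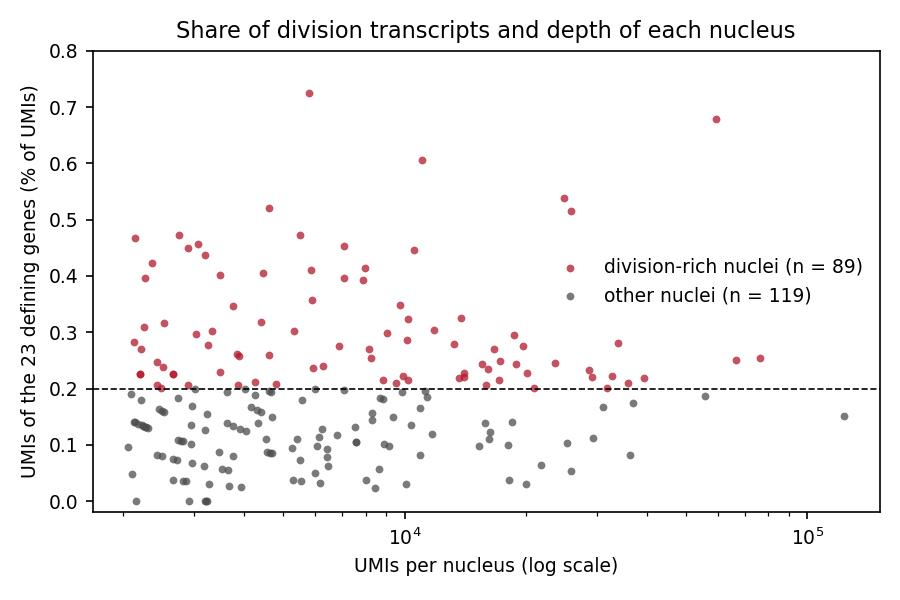
UMIs of the 23 defining genes (% of all UMIs of a nucleus) against UMIs per nucleus on a log scale, 1 point per nucleus, with the threshold of 0.2% as a dashed line. The 89 division-rich nuclei and the 119 other nuclei run from 2129 to 76485 UMIs and from 2062 to 123309 UMIs, and the shares form no gap at the threshold.

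The best known division genes were higher in division-rich nuclei, as the rule ensured. Mcm3 and Mcm5 (helicase subunits), PCNA, CycB (the mitotic cyclin B), aurA (a spindle pole kinase) and pav (the Pavarotti kinesin) together reached 965 CPM (UMIs of a gene per 1000000 UMIs of the group) in division-rich nuclei and 351 CPM in the other nuclei. CycB stood at 604 CPM in division-rich nuclei and at 200 CPM in the other nuclei, and CycA, the other major mitotic cyclin, at 379 CPM in division-rich nuclei and 156 CPM in the other nuclei. At 2000 UMIs per nucleus, CycB was found in 64.0% of division-rich nuclei, 31.9% of the other nuclei and 34.5% of 29 muscle nuclei. Before thinning these shares were 88.8%, 58.8% and 69.0%. The muscle nuclei are those of both groups, 7 division-rich and 22 other, in which Mhc and bt (myosin heavy chain and the giant muscle protein projectin) took at least 0.5% of UMIs. They had a median depth of 6798 UMIs before thinning and were picked without regard to the defining genes. Their shares stand beside those of both groups as a description, and whether these nuclei had stopped dividing was not tested. Here and below, a share under 10.3% of the muscle nuclei stands for fewer than 3 nuclei. PCNA was found in 27.0% of division-rich nuclei, 10.1% of the other nuclei and 3.45% of the muscle nuclei at 2000 UMIs, and in 69.7%, 32.8% and 44.8% of them before thinning. Top2, which untangles replicated DNA, had shares of 49.4%, 15.97% and 27.6% in the division-rich, other and muscle nuclei at 2000 UMIs. In the 22 muscle nuclei outside the division-rich group, CycB, PCNA and Top2 had shares of 27.3%, 0% and 18.2% at 2000 UMIs. These 3 genes helped to choose the groups, and their shares are given as a description. Mcm2 differed most between the groups, at 63.4 CPM in division-rich nuclei and 14.6 CPM in the other nuclei. The helicase gene dpa differed least, at 51.5 CPM in division-rich nuclei and 37.99 CPM in the other nuclei. The rarest was cid, the centromeric histone, with 19 UMIs in all division-rich nuclei and 6 in all other nuclei.

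The rule joined 9 replication genes and 14 genes of G2 and mitosis. To measure each class in nuclei that it had not chosen, the 89 nuclei with the highest share of the replication genes alone were compared with the remaining 119. In those nuclei the mitotic genes reached 2099 CPM, against 1171 CPM in the rest, a ratio of 1.79 (1.67 to 1.92), and 14 of 14 genes were higher. In the 89 nuclei chosen by the mitotic genes alone, the replication genes reached 740 CPM, against 386 CPM in the rest, a ratio of 1.92 (1.70 to 2.17), and 9 of 9 genes were higher. Of the nuclei chosen in these ways, 65 and 78 were also division-rich by the full rule. Both classes belong to the rule, so these values describe the defining genes only. The share of all genes that were higher was not taken for these splits, so 14 of 14 and 9 of 9 lack a background. The nucleus richest in egg transcripts, described below, held 284 mitotic and 118 replication UMIs, beside 1987 and 761 in all chosen nuclei. With every nucleus weighted the same, the ratios were 1.74 and 1.85. At 2000 UMIs per nucleus the counts of the 2 classes had a Spearman correlation of 0.27 over 208 nuclei, which share 1 library and hold few UMIs of either class. The phase of single nuclei was not called at this depth.

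Outside the 23 defining genes, 7844 genes had at least 20 UMIs over both groups and could be compared. On the log2 scale of CPM + 10, 239 of them (3.05%) were at least 2-fold higher in division-rich nuclei and 339 (4.32%) at least 2-fold lower. A value above that of the other nuclei, by any amount, was seen for 4615 genes (58.8%), and the median of all genes was 0.10. With ribosomal protein genes left out of the totals, which took 277035 CPM in division-rich nuclei and 227530 CPM in the other nuclei, the counts turned to 408 higher and 321 lower. These percentages are the background for the gene groups below, none of which contains a defining gene.

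Replication genes that the rule did not use were also higher in division-rich nuclei, as a group and nearly gene by gene. The 40 other proteins of origins and forks, among them the origin recognition complex, the GINS complex, the polymerases and the clamp loader, ran from 0 to 3754 CPM per nucleus with a median of 1132 in division-rich nuclei, and from 0 to 1994 CPM with a median of 552 in the other nuclei. The ranges overlapped, but the upper quartile of the other nuclei, 841 CPM, lay close to the lower quartile of division-rich nuclei, 796 CPM. Summed over nuclei the list had 1308 and 665 CPM in division-rich and other nuclei, a ratio of 1.97 (1.79 to 2.16). Of the 31 members with at least 20 UMIs, 30 were higher and 5 at least 2-fold higher, with a median of 0.71. dup, the fly Cdt1 that loads the helicase, had 108 CPM in division-rich nuclei and 47.7 CPM in the other nuclei, and at 2000 UMIs it was found in 23.6%, 8.40% and 13.8% of division-rich, other and muscle nuclei. The clamp loader subunit RfC38 had 39 UMIs in division-rich nuclei and 10 in the other nuclei, and Pol32, a subunit of polymerase delta, 28 and 5. DNAlig1, which seals the lagging strand, had 30 UMIs in division-rich nuclei and 7 in the other nuclei, a direction that turned with a threshold of 0.3%. The 1 member below its level in the other nuclei was the primase subunit DNApol-alpha50, with 9 UMIs in division-rich nuclei and 12 in the other nuclei, a ratio of 0.71 (0.26 to 1.83).

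Genes of DNA repair and nucleotide synthesis were higher as well. DNA repair genes reached 493 CPM in division-rich nuclei and 278 CPM in the other nuclei, a ratio of 1.77 (1.53 to 2.06), with 14 of 15 members higher and 2 at least 2-fold higher. Those were mre11, of the break-sensing MRN complex, with 25 UMIs in division-rich nuclei and 3 in the other nuclei, and the mismatch repair gene Msh6, with 33 and 8 UMIs. Genes of nucleotide synthesis reached 2059 CPM in division-rich nuclei and 1504 CPM in the other nuclei, a ratio of 1.37 (1.28 to 1.46). Of 20 members, 16 were higher, 3 at least 2-fold higher and 1 at least 2-fold lower. Among those that led this list, dnk, the deoxyribonucleoside kinase, had 98.3 CPM in division-rich nuclei and 32.1 CPM in the other nuclei. Ts, thymidylate synthase, had 31 and 8 UMIs, and bur, GMP synthetase, had 92.8 and 40.9 CPM. Prat2, an amidotransferase at the head of purine synthesis, ran the other way, with 30.3 CPM in division-rich nuclei and 168 CPM in the other nuclei, a ratio of 0.18 (0.12 to 0.26). The housekeeping kinase awd was higher as well, at 822 CPM in division-rich nuclei and 451 CPM in the other nuclei.

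Chromatin proteins were higher in most division-rich nuclei than in most other nuclei. The 20 genes of chromatin assembly and high mobility group (HMG) proteins ran from 2588 to 12950 CPM per nucleus, median 5779, in division-rich nuclei, and from 364 to 11146 CPM, median 3426, in the other nuclei. The lower quartile of division-rich nuclei, 4872 CPM, was above the upper quartile of the other nuclei, 4690 CPM. All 20 members were higher in division-rich nuclei by summed CPM, 6 of them at least 2-fold, and the ratio of sums was 1.63 (1.57 to 1.70). The members past 2-fold included Ssrp and dre4, both subunits of the histone chaperone FACT, with 67 and 78 UMIs in division-rich nuclei and 21 and 26 UMIs in the other nuclei. They also included Caf1-55 and Caf1-180, subunits of the chaperone that deposits histones behind the fork, with 66.2 and 96.5 CPM in division-rich nuclei, against 23.4 and 37.0 CPM in the other nuclei. HmgD, the HMG protein known for packaging chromatin in the early fly embryo, had 1437 CPM in division-rich nuclei and 722 CPM in the other nuclei. Its relative HmgZ did not differ beyond counting error, with 590 and 565 CPM and a ratio of 1.04 (0.93 to 1.17). The 8 replacement histone genes and their regulators were all higher, though none by 2-fold, with a ratio of 1.31 (1.25 to 1.38). His2Av, the fly H2A variant, had 660 CPM in division-rich nuclei and 395 CPM in the other nuclei.

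**Figure D2:**
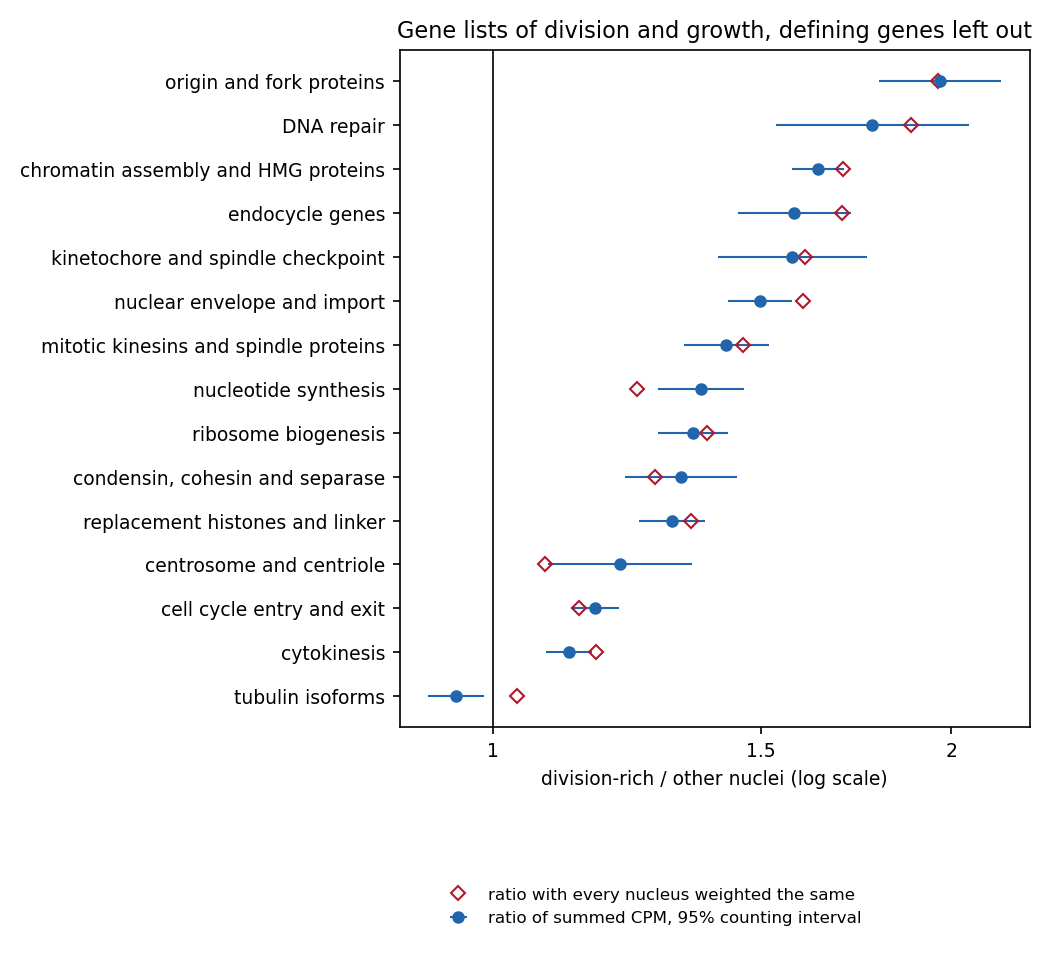
Ratio of division-rich to other nuclei on a log scale for lists of division and growth genes without the defining genes, as summed CPM with its 95% counting interval (filled circles) and with every nucleus weighted the same (open diamonds). Origin and fork proteins lie highest at 1.97, and tubulin isoforms lie at 0.95 by summed CPM and at 1.04 with equal weights.

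Genes of mitosis outside the rule were higher too, by less. The 5 lists of kinetochore, chromosome structure, spindle, centrosome and cytokinesis genes together ran from 5273 to 16000 CPM per nucleus, median 11120, in division-rich nuclei, and from 4084 to 19925 CPM, median 8307, in the other nuclei, so that the groups overlapped over most of their range. Their summed ratio was 1.22 (1.19 to 1.26), and 87 of 103 members were higher, 16 of them at least 2-fold and none at least 2-fold lower. The cytokinesis list weighed most on this sum. It held 6996 of the 12324 UMIs of the 5 lists in division-rich nuclei, and its ratio of 1.12 was the lowest of the 5. Kinetochore and checkpoint genes differed most, with 765 CPM in division-rich nuclei, 486 CPM in the other nuclei and a ratio of 1.57 (1.41 to 1.76). BubR1, a checkpoint kinase, had 60 UMIs in division-rich nuclei and 22 in the other nuclei, and cmet, the fly CENP-E motor, had 44 and 13 UMIs. Spc25, of the Ndc80 complex, had 28 UMIs in division-rich nuclei and 35 in the other nuclei, with a ratio of 0.75 (0.44 to 1.28). Its partner in that complex, Nuf2, had 31 UMIs in division-rich nuclei and 9 in the other nuclei.

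Kinesins and spindle proteins had a ratio of 1.42 (1.34 to 1.52), with 26 of 29 members higher and 5 at least 2-fold higher. ncd, the minus-end kinesin, had 66.2 CPM in division-rich nuclei and 18.5 CPM in the other nuclei. msd1, of the augmin complex, was found at 2000 UMIs in 16.9% of division-rich nuclei and in 0 of the other and of the muscle nuclei, while before thinning 39.3% of division-rich, 10.9% of other and 13.8% of muscle nuclei had a UMI of it. mud and asp, which organise spindle poles, had 96.5 and 79.0 CPM in division-rich nuclei, against 30.2 and 28.2 CPM in the other nuclei. In the list of condensin, cohesin and separase, with a ratio of 1.33 (1.22 to 1.45), the anaphase proteins led: pim, securin, had 80.9 CPM in division-rich nuclei and 25.3 CPM in the other nuclei, and thr, its partner in the separase complex, had 39 and 10 UMIs. The condensin I subunit barr had 57.9 CPM in division-rich nuclei and 30.2 CPM in the other nuclei, while Cap-H2, the corresponding subunit of condensin II, had 22.97 and 40.9 CPM, a ratio of 0.56 (0.33 to 0.94).

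Centrosome genes had a ratio of 1.21 (1.09 to 1.35), with 16 of 18 members higher and 3 at least 2-fold higher, all of them known from centriole duplication: ana2 with 34 UMIs in division-rich nuclei and 6 in the other nuclei, Sas-4 with 25 and 5, and asl with 44 and 14. Plp, the fly pericentrin, had 126 CPM in division-rich nuclei and 212 CPM in the other nuclei, a ratio of 0.59 (0.48 to 0.74), and at 2000 UMIs it was found in 15.7%, 29.4% and 41.4% of division-rich, other and muscle nuclei. Cytokinesis genes differed least, with a ratio of 1.12 (1.08 to 1.16) and 10 of 16 members higher, a share of 62.5% that lies near the 58.8% of all genes. The anillin gene scra was the 1 member at least 2-fold higher, with 95.6 CPM in division-rich nuclei and 37.99 CPM in the other nuclei. sti, the citron kinase, had 95.6 CPM in division-rich nuclei and 43.8 CPM in the other nuclei. Genes of nuclear import and of the nuclear envelope, which is remodelled at each division, reached 3930 CPM in division-rich nuclei and 2624 CPM in the other nuclei, a ratio of 1.498 (1.43 to 1.57), with 21 of 23 members higher. Pen, an importin alpha, had 266 CPM in division-rich nuclei and 100.3 CPM in the other nuclei. Tubulin isoforms had 4031 CPM in division-rich nuclei and 4261 CPM in the other nuclei, a ratio of 0.95 (0.91 to 0.99) that turned to 1.04 with every nucleus weighted the same and to 1.01 with ribosomal protein genes out of the totals. alphaTub84B, the general isoform, did not differ beyond counting error (2523 UMIs in division-rich nuclei and 2417 in the other nuclei).

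Regulators of entry into and exit from the cycle were mostly a little higher. Of 39 genes, 38 were higher in division-rich nuclei and 5 at least 2-fold higher, while the summed ratio was only 1.17 (1.13 to 1.21). CycE, the cyclin that starts DNA replication, had 230 CPM in division-rich nuclei and 100.3 CPM in the other nuclei, and at 2000 UMIs was found in 43.8%, 16.8% and 24.1% of division-rich, other and muscle nuclei. The pocket protein gene Rbf2 had 38 UMIs in division-rich nuclei and 6 in the other nuclei, and Cks30A, a small Cdk-binding protein of the female germ line and early embryo, 44 and 12, though its direction turned at 2000 UMIs per nucleus. The 1 lower member was CycG, with 1373 CPM in division-rich nuclei and 2046 CPM in the other nuclei, a ratio of 0.67 (0.63 to 0.72). Inhibitors of division were not lower: dap, the fly p21 and p27 homologue, had 346 CPM in division-rich nuclei and 247 CPM in the other nuclei, and fzr, which drives cyclin destruction on leaving the cycle, had 173 and 118 CPM.

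Genes of growth were higher by amounts near that of the mitosis lists summed together. Ribosome biogenesis genes had a ratio of 1.35 (1.28 to 1.43) with 27 of 30 members higher and 1 at least 2-fold higher. Cytosolic ribosomal protein genes had a ratio of 1.22 (1.21 to 1.22) with 84 of 85 higher and none by 2-fold. Per nucleus they took from 146935 to 383099 CPM, median 265780, in division-rich nuclei, and from 61698 to 390492 CPM, median 217839, in the other nuclei. Translation factors had a ratio of 1.13 (1.11 to 1.16), and 16 of 19 were higher.

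The levels ran with the share of the defining genes over its whole range, on both sides of the threshold. In 49 nuclei under 0.1%, 70 from 0.1% to 0.2%, 56 from 0.2% to 0.3% and 33 from 0.3%, the median of origin and fork genes was 428, 736, 1030.0 and 1702 CPM. Over the same steps the mitosis lists had medians of 7701, 9229, 10636 and 11997 CPM, and the chromatin assembly list 2536, 4031, 5648 and 6003 CPM. Median depth was 4644, 4563, 9711.5 and 5505 UMIs, and share and depth had a Spearman correlation of 0.14 over the same nuclei; the part of depth in these levels was not tested. With every nucleus thinned to 2000 UMIs, the genes whose counts followed the count of the defining genes most closely over 208 nuclei were HmgD (Spearman 0.44), RpL41 (0.43), Df31 (0.41), His2Av (0.34) and RpLP2 (0.34). They stand against a median of 0.037 over 788 genes found in at least 30% of nuclei. Df31 is a chromatin decondensation factor, and RpL41 and RpLP2 are ribosomal proteins. Abundant transcripts are measured more closely than rare ones at this depth, and the nuclei share 1 library, so these values describe the library only.

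**Figure D3:**
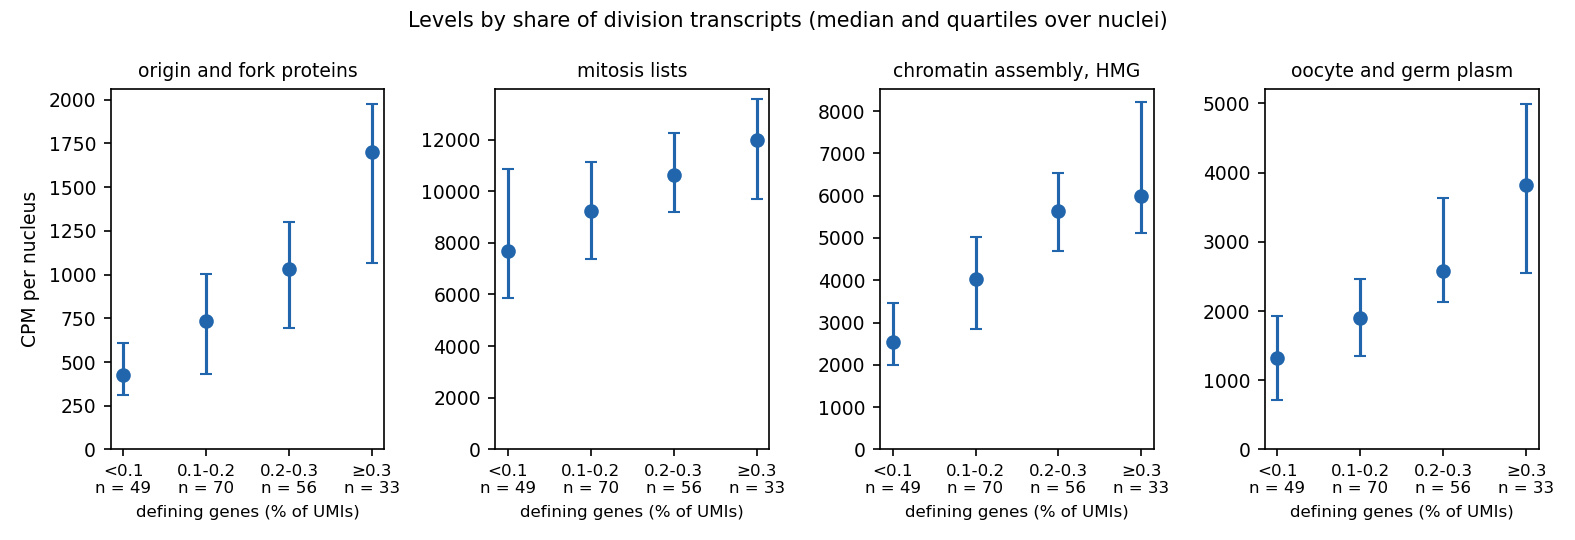
Median and quartiles over nuclei of the CPM of 4 gene lists, in steps of the share of UMIs held by the defining genes, with the number of nuclei under each step. All 4 medians climb over the steps, those of origin and fork proteins to 1702 CPM and those of oocyte and germ plasm genes to 3815 CPM in the 33 nuclei of the highest step.

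Transcripts known from the egg had the highest ratio of the marker lists by summed CPM. The oocyte and germ plasm list, genes transcribed in the ovary and stored in the egg, ran from 235 to 23071 CPM per nucleus, median 2769, in division-rich nuclei, and from 0 to 5733 CPM, median 1600.0, in the other nuclei. The lower quartile of division-rich nuclei, 2235 CPM, lay at the upper quartile of the other nuclei, 2231 CPM, so that the difference was not confined to a few nuclei. Summed over nuclei the list had 4305 CPM in division-rich nuclei and 1711 CPM in the other nuclei, a ratio of 2.52 (2.38 to 2.66). Of 23 members, 18 had at least 20 UMIs, of which 17 were higher and 12 at least 2-fold higher, and 2 (BicC and cup) had none in either group. Cyclins A and B, 2 of the defining genes, are also known as transcripts stored in the egg. CycB3, another defining gene, belonged to this egg list and was left out of it because the rule used it. How far egg transcripts set the share that chose the nuclei was not tested.

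The leading egg genes were dhd, exu, alphaTub67C, gnu and osk. dhd, the thioredoxin of the female germ line, had 1112 UMIs in division-rich nuclei and 205 in the other nuclei, and at 2000 UMIs was found in 53.9%, 33.6% and 37.9% of division-rich, other and muscle nuclei. osk, the determinant of the germ plasm, had 163 UMIs in division-rich nuclei and 34 in the other nuclei, and was found in 18.0% of division-rich nuclei, 3.36% of the other nuclei and 3.45% of the muscle nuclei. alphaTub67C, the maternal tubulin, was found in 13.5% of division-rich nuclei, 0.840% of the other nuclei and 6.90% of the muscle nuclei. gnu, a subunit of the kinase that turns on translation at egg activation, had 95 UMIs in division-rich nuclei and 14 in the other nuclei, and exu, which places maternal transcripts, 87 and 11. mtrm, an inhibitor of Polo in the oocyte, had 158 UMIs in division-rich nuclei and 39 in the other nuclei, and the heat shock gene Hsp26, also expressed in the ovary, had 434 and 121.

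A single nucleus stood apart and carried much of this signal. It had 59253 UMIs, the third deepest of the division-rich nuclei, and 1367 UMIs of the oocyte and germ plasm list, which is 2.31% of its UMIs and 29.2% of all such UMIs of its group. The defining genes took 0.678% of its UMIs, of which 118 UMIs were of replication and 284 of mitosis genes, with 88 UMIs of CycB. It held 466 of the 1112 dhd UMIs, 58 of the 163 osk UMIs, 82 UMIs of wisp (the egg's poly(A) polymerase), 65 of pgc (which silences transcription in germ cells) and 13 of vas, the germ line helicase. Without it the ratio of the list was 1.88 and that of origin and fork genes 1.77. DNA repair genes then had a ratio of 1.60 and the mitosis lists 1.19, and 165 genes were at least 2-fold higher. In 4 more division-rich nuclei the list took over 1% of UMIs, namely 1.60%, 1.41%, 1.31% and 1.28%, at depths of 2750, 10546, 3197 and 2258 UMIs. The highest value among the 119 other nuclei was 0.573%.

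Lists of the germ line and the early embryo itself differed less than the egg list. Germ cell genes had a ratio of 1.202 (1.13 to 1.28), or 1.12 without the nucleus richest in egg transcripts. Of 11 members 10 were higher and 2 at least 2-fold higher, pgc with 166 UMIs in division-rich nuclei and 42 in the other nuclei, and the germ cell junction gene zpg with 57 and 17. Genes of the blastoderm, the early embryo before gastrulation, had a ratio of 1.23 (1.14 to 1.33), but 13 of 20 were higher, a share of 65.0% that lies near the background of 58.8%. With every nucleus thinned to 2000 UMIs the ratio of this list was 1.04. Of the higher members, ftz, the pair-rule gene, had 31 UMIs in division-rich nuclei, where 16 nuclei had at least 1, and 3 UMIs in the other nuclei. At 2000 UMIs it was found in only 2.25% of division-rich nuclei and 0.840% of the other nuclei. slam, which builds the cell membranes at cellularisation, had 63 UMIs in division-rich nuclei and 25 in the other nuclei.

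Markers of several differentiated tissues were lower in division-rich nuclei by summed CPM. Somatic muscle genes had 12567 CPM in division-rich nuclei and 23417 CPM in the other nuclei, a ratio of 0.54 (0.53 to 0.55). Fat body genes had a ratio of 0.34 (0.32 to 0.35), led by apolpp, the main lipoprotein, with 2241 CPM in division-rich nuclei and 7828 CPM in the other nuclei. Neuronal genes had a ratio of 0.75 (0.72 to 0.79), glial genes 0.79 (0.74 to 0.84), midgut genes 0.71 (0.65 to 0.78), and genes of mesoderm and myoblasts 0.67 (0.63 to 0.71). Epidermal genes had a ratio of 0.89 (0.85 to 0.93), and hemocyte and tracheal genes of 1.03 and 1.02 did not differ beyond counting error. Only 1 of the 20 neuronal genes was higher, elav, a gene that neurons switch on early, with 773 CPM in division-rich nuclei and 656 CPM in the other nuclei. The sodium channel gene para, needed for firing, had 212 CPM in division-rich nuclei and 493 CPM in the other nuclei, and cpx, complexin of the synapse, had 151 and 299.99 CPM. The 30 genes of synapse and excitability, 29 of them with at least 20 UMIs, had a ratio of 0.59 (0.56 to 0.62), with 4 at least 2-fold lower.

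**Figure D4:**
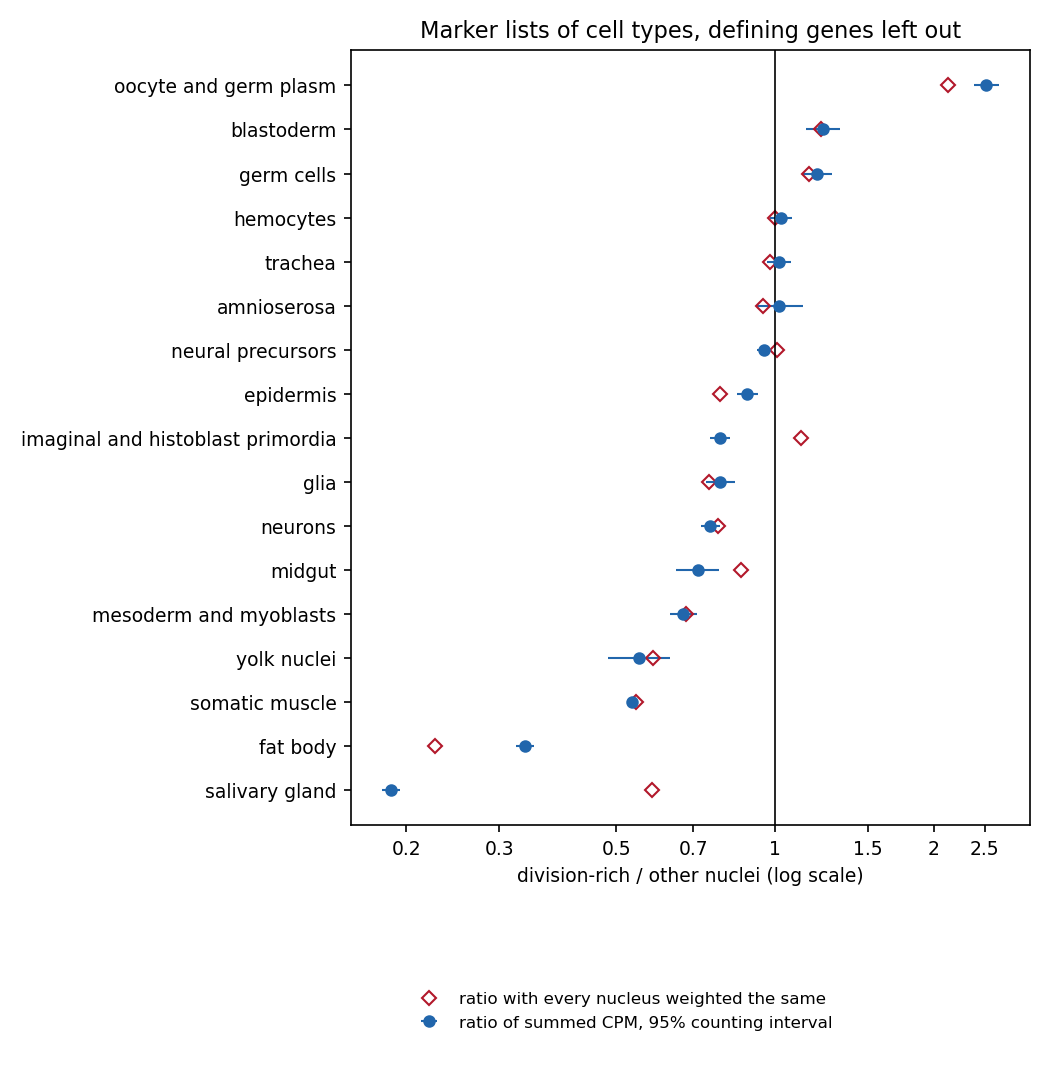
Ratio of division-rich to other nuclei on a log scale for marker lists of cell types without the defining genes, as summed CPM with its 95% counting interval (filled circles) and with every nucleus weighted the same (open diamonds). Oocyte and germ plasm genes lie highest at 2.52, and salivary gland genes move from 0.19 by summed CPM to 0.58 with equal weights.

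The typical nucleus did not follow the sum in every tissue. The median level per nucleus of muscle genes was 5273 CPM in division-rich nuclei and 4754 CPM in the other nuclei, that of neuronal genes 3048 and 2019 CPM, and that of fat body genes 2073 and 1750 CPM. Midgut genes likewise had a median of 681 CPM in division-rich nuclei and 533 CPM in the other nuclei, with no nucleus of either group over 1%. Medians were also higher in division-rich than in other nuclei for glial genes (1649 and 1496 CPM) and epidermal genes (2414 and 1781 CPM). The same held for genes of synapse and excitability (1568 and 1254 CPM). Genes of mesoderm and myoblasts did follow the sum, with a median of 1651 CPM in division-rich nuclei and 2089 CPM in the other nuclei. For muscle, neurons and fat body the highest nucleus lay among the others: 109386 CPM in division-rich and 255460 CPM in other nuclei for muscle, 23051 and 32987 CPM for neurons, and 16126 and 143467 CPM for fat body. Fat body genes took over 1% of UMIs in 2 of 89 division-rich nuclei (2.25%, exact binomial interval 0.273% to 7.88%) and in 24 of 119 other nuclei (20.2%, 13.4% to 28.5%). Neuronal genes did so in 3 division-rich nuclei (3.37%, 0.701% to 9.54%) and 19 other nuclei (15.97%, 9.90% to 23.8%). Epidermal genes did so in 2 division-rich and 11 other nuclei, and muscle genes in 20 division-rich nuclei (22.5%) and 34 other nuclei (28.6%), with intervals that overlapped. At 2000 UMIs per nucleus these counts were 2 and 25 for fat body, 3 and 18 for neurons, 4 and 11 for epidermis, and 23 and 36 for muscle in division-rich and other nuclei.

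**Figure D5:**
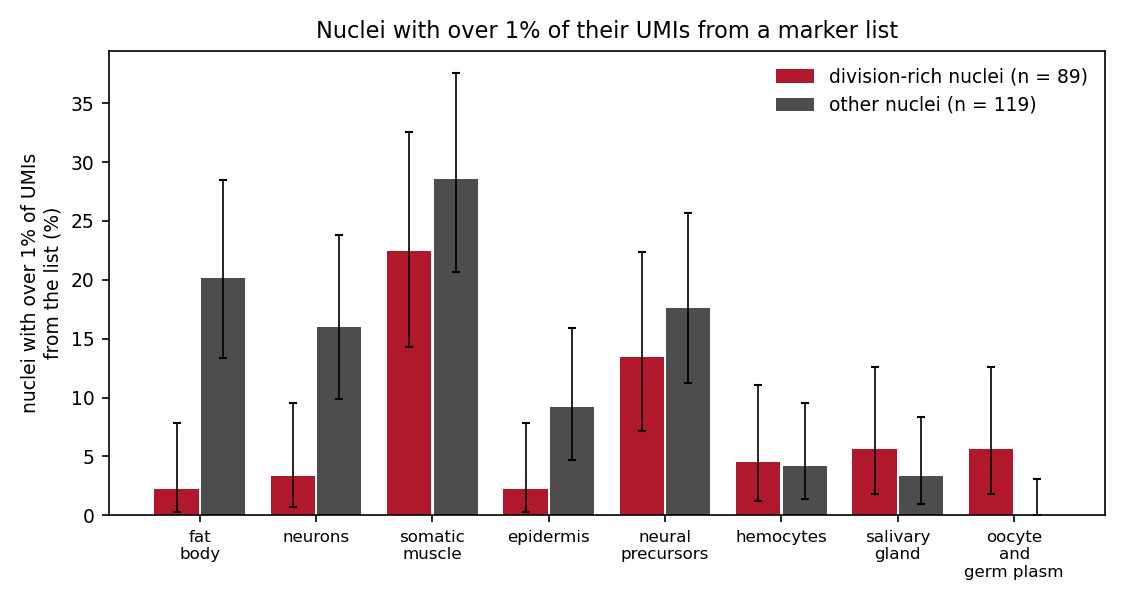
Percent of division-rich nuclei (n = 89) and of other nuclei (n = 119) in which a marker list took over 1% of UMIs, with exact 95% binomial intervals. The bars for fat body are 2.25% and 20.2%, those for oocyte and germ plasm 5.62% and 0%.

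Salivary gland genes show how far 1 nucleus can set a sum. Their ratio was 0.19 (0.18 to 0.19) by summed CPM and 0.58 with every nucleus weighted the same. CG13159 had 771 UMIs in division-rich nuclei and 7906 in the other nuclei, of which 1 nucleus held 7179, and CG31813 had 890 and 5030, of which 1 nucleus held 4064. At 2000 UMIs the share of nuclei with CG31813 was 67.4% in division-rich nuclei, 45.4% in the other nuclei and 51.7% in muscle nuclei, which goes against the direction of the sum.

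The neural precursor list did not set the division-rich nuclei apart. It ran from 1818 to 28231 CPM per nucleus, median 6983, in division-rich nuclei, and from 792 to 25043 CPM, median 6880.1, in the other nuclei. By summed CPM the ratio was 0.95 (0.92 to 0.98), which turned to 1.01 with every nucleus weighted the same and to 1.02 with ribosomal protein genes out of the totals. Its median over genes lay on the other side, at 0.32, with 24 of 30 members higher, none by 2-fold. The neuroblast gene ase, a proneural factor, had 28 UMIs in division-rich nuclei and 14 in the other nuclei, and D, a Sox factor of the neuroectoderm, had 97 and 45. chinmo, which marks early-born neurons as well as neuroblasts, weighed most on the sum, with 1349 CPM in division-rich nuclei and 2378 CPM in the other nuclei, a ratio of 0.57 (0.53 to 0.61). The list took over 1% of UMIs in 12 division-rich nuclei (13.5%) and 21 other nuclei (17.6%).

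Muscle nuclei were found among the division-rich ones as well. Of the 29 nuclei in which Mhc and bt took at least 0.5% of UMIs, 7 were division-rich, which is 7.87% of the division-rich nuclei, against 22 or 18.5% of the other nuclei. In these 7 the defining genes took between 0.210% and 0.403% of UMIs, median 0.223%, close to the threshold for most. Mhc and bt took a median of 1.08% of their UMIs, against 1.34% in the muscle nuclei outside the group. Scrublet, which scores nuclei for a mixture of profiles, called 2 division-rich and 5 other nuclei.

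Among single genes, 15 were named as the highest and 15 as the lowest by the log2 ratio of CPM + 10. Besides the egg genes above, the highest were led by CG13067, with 540 UMIs in division-rich nuclei and 92 in the other nuclei, of which 1 division-rich nucleus held 309. CG32564 and CG13679 were of the same kind, with 138 of 218 and 219 of 279 of their division-rich UMIs in 1 nucleus. All of these were lower, not higher, with a threshold of 0.3%. Ggt-1 and CG4991 had 75 and 74 UMIs in division-rich nuclei, against 13 and 15 in the other nuclei, CG11674 had 67 and 11, and Ski6, a subunit of the RNA exosome, had 36 and 4. Ski6 was the most evenly spread of these, with 24 division-rich and 4 other nuclei and at most 3 UMIs in any.

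The lowest genes included several of the tissues named above. CAP and Strn-Mlck, of the muscle attachment and contractile apparatus, had 137 and 122 CPM in division-rich nuclei, against 735 and 595 CPM in the other nuclei, and at 2000 UMIs were found in 82.8% and 93.1% of muscle nuclei. The monoamine transporter gene Vmat had 35 UMIs in division-rich nuclei and 241 in the other nuclei, of which 1 nucleus held 113. Its direction and that of CG30413 turned in nuclei chosen by the replication genes alone. fusl had 51 UMIs in division-rich nuclei and 521 in the other nuclei, with no more than 60 in any nucleus, a ratio of 0.09 (0.07 to 0.12). The flavin monooxygenase Fmo-1, the cytochromes P450 Cyp304a1 and Cyp18a1 (which breaks down the moulting hormone ecdysone) and the noncoding RNA lncRNA:yar had ratios between 0.065 and 0.15. CG30413, with 639 of its 985 UMIs outside the division-rich group in 1 nucleus, CG13868, CG4306 and CG8745 completed the list, at ratios from 0.12 to 0.26.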

How the data were processed

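A single RNA library of embryo nuclei was analysed. The authors deposited raw UMI counts for each gene in each nucleus, not normalized, with name lists of genes and nuclei that hold no measurement. The submitters' processing notes name genome build dm3. For the aligner, counting program, strand setting and filters on nuclei, nothing is stated: not given in the sources used here. Coordinates and sequences were not used here, and the planned search of promoters for motifs was not run.

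Counts were summed over the nuclei of each group and given as CPM, with exact Poisson, conditional binomial (ratios) and Clopper-Pearson (shares) intervals. Ratios of single genes, of lists and of the text are of CPM; rankings, medians and calls of 2-fold use log2 of CPM + 10 over genes with at least 20 UMIs. Nuclei were thinned to 2000 UMIs without replacement. Named genes were the 15 highest and 15 lowest found in at least 20% of nuclei of the higher group, up to 4 highest and 3 lowest of each list, every Hox gene and the 5 genes that followed the defining genes most closely; wisp and Mhc were named after their values were seen. The defining genes, lists and thresholds were chosen with earlier results of these data known. Of the list symbols, 790 were found as written, 34 through older symbols and 18 were not. Scrublet called 8 nuclei, which were kept. The calculation was run on simulated counts in which all nuclei of a group shared a single profile. Such counts cannot show how variation between nuclei, or the choice of nuclei by the defining genes, bears on the calls. Work used scanpy 1.11.5 and scipy 1.17.1, with numpy 2.4.6, pandas 2.3.3 and matplotlib 3.10.9, in Python 3.11.15. A set of 14 alternatives was tried.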

Additional observations from a re-analysis of the deposited data

How the results depend on the processing

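The gene lists of division kept their direction in all 11 alternatives that gave them a value, with the exception of tubulin isoforms. Origin and fork genes ranged from 1.62 to 2.496: 2.16 thinned to 2000 UMIs, 2.496 with a threshold of 0.3%, 2.21 without the highest doublet scores, 1.62 in nuclei chosen by replication genes alone and 1.77 without the nucleus richest in egg transcripts. The mitosis lists had 1.27, 1.30, 1.28 and 1.12 in the first 4 of these settings, 1.26 without the deepest nucleus of each group and 1.31 with ribosomal protein genes out of the totals. The oocyte and germ plasm list had 2.06 thinned, 2.13 with equal weights, 2.75 without the deepest nuclei, 4.02 at 0.3%, 2.69 without ribosomal proteins, 2.75 without doublet scores, 1.97 by replication genes and 1.88 without the richest nucleus. The neural precursor list turned to 1.01 with equal weights, 1.05 without the deepest nuclei, 1.02 without ribosomal proteins and 1.07 without doublet scores, and had 0.99 both thinned and in nuclei chosen by mitosis genes. Genes at least 2-fold higher and lower numbered 157 and 274 when thinned, 538 and 734 at 0.3%, 408 and 321 without ribosomal proteins, 127 and 162 by replication genes, 651 and 562 with a pseudocount of 1, and 156 and 277 with a minimum of 50 UMIs. Of the 239 genes called higher, 37 were also called when thinned, where 3522 genes kept enough UMIs. Ratios that turned were tubulins (1.05 thinned, 1.04 equal weights, 1.01 without ribosomal proteins), imaginal primordia (1.12 thinned, 1.12 equal weights, 1.05 without the deepest nuclei, 1.06 without doublet scores), cuticle (0.865 without the deepest nuclei, 0.532 at 0.3%), oxidative phosphorylation (0.981 and 0.916 likewise), glycolysis (1.02 at 0.3%) and epidermis (1.13 by replication genes). Log2 values that turned were Cks30A (-0.21 thinned), CG13679 (-0.26 without the deepest nuclei, -1.37 at 0.3%), CG13067 (-2.23 at 0.3%), CG32564 (-1.13 at 0.3%), DNAlig1 (-0.47 at 0.3%), CG30413 (1.11 by replication genes) and Vmat (0.24 by replication genes). The cause was not tested. The alternative without the richest nucleus was chosen after seeing the data. No paired analysis was possible because there is 1 RNA library. Depth limits calls on single nuclei: a division-rich nucleus rests on a median of 22 UMIs of the defining genes.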

Other observations

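Ratios of gene groups outside division, growth and cell type lay on both sides of 1 for division-rich against other nuclei. Notch pathway genes, the signalling system that also limits neural precursors, ran from 288 to 8302 CPM per nucleus, median 2657, in division-rich nuclei, and from 0 to 7046 CPM, median 1992, in the other nuclei. Their ratio of sums was 1.24 (1.18 to 1.31) and lay between 1.17 and 1.56 over 11 alternatives, with 13 of 18 members higher and none past 2-fold. That share of 72.2% stands beside 58.8% of all genes. The ligand gene Dl had 587 CPM in division-rich nuclei and 351 CPM in the other nuclei, while mam, a coactivator of the receptor, had 212 and 294 CPM. Polycomb group genes, which keep developmental genes silent, had a ratio of 1.16 (1.07 to 1.26), or 1.10 with every nucleus weighted the same. Of these, 12 of 17 were higher, a share of 70.6% beside the 58.8% of all genes. Pc, the founding member, was the 1 gene among them past 2-fold, with 30 UMIs in division-rich nuclei and 7 in the other nuclei. Genes of the endocycle, DNA replication without division, had a ratio of 1.58 (1.45 to 1.72) with 7 of 7 higher, beside 58.8% of all genes. All 7 stand in lists above as well, so they are not a separate set. dup is among the origin and fork proteins, and the rest are among the regulators of entry and exit. The only other member, SuUR, had no UMI in either group.

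Hox genes, which give segments their identity, had 866 CPM in division-rich nuclei and 1100 CPM in the other nuclei, a ratio of 0.79 (0.72 to 0.86). The typical nucleus went against this sum, with a median of 757 CPM in division-rich nuclei and 624 CPM in the other nuclei. The anterior genes lab, pb, Dfd and Scr had 14, 7, 24 and 46 UMIs in division-rich nuclei, against 9, 4, 13 and 29 in the other nuclei. The trunk genes Antp, Ubx and abd-A had 206, 242 and 148 CPM in division-rich nuclei, against 313, 321 and 217 CPM in the other nuclei. Abd-B, the most posterior, had 203 and 200 UMIs in division-rich and other nuclei. The interval of the ratio reached 1 for each of the 4 anterior genes and for Abd-B, and lay below 1 for Antp, Ubx and abd-A. At 2000 UMIs, Antp, Ubx and abd-A were found in 28.1%, 32.6% and 20.2% of division-rich nuclei. In the other nuclei these shares were 27.7%, 26.9% and 26.05%, so only abd-A kept the direction of its sum.

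Glycolysis genes had a ratio of 0.80 (0.76 to 0.85), with 5 of 12 higher, and Ldh, lactate dehydrogenase, was the 1 member past 2-fold, with 108 CPM in division-rich nuclei and 250.3 CPM in the other nuclei. The median per nucleus of the list went against the sum, at 1998 CPM in division-rich nuclei and 1502 CPM in the other nuclei. It took over 1% of UMIs in 0 division-rich and 6 other nuclei. Oxidative phosphorylation genes had a ratio of 1.06 (1.03 to 1.08). Cuticle protein genes had a ratio of 1.17 (1.12 to 1.23), 26.6% of their division-rich UMIs lay in 1 nucleus, and the ratio was 1.0003 with every nucleus weighted the same. Septate junction genes had a ratio of 0.92 (0.88 to 0.95), though their median per nucleus was 4516 CPM in division-rich nuclei and 4170 CPM in the other nuclei. Yolk nuclei genes had a ratio of 0.55 (0.48 to 0.63), and those of Malpighian tubule and hindgut 0.72 (0.67 to 0.78). The median per nucleus of the yolk list was 240 CPM in division-rich nuclei and 163 CPM in the other nuclei, against its sum. Genes of the amnioserosa had a ratio of 1.02 (0.92 to 1.13). Genes of imaginal and histoblast primordia, the cells set aside for the adult, had a ratio of 0.79 (0.75 to 0.82), which turned to 1.12 with every nucleus weighted the same.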
